A study of Mus musculus with 11 samples.

Results

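Fetal livers that lacked caspase-8 together with TNFR1 were compared with fetal livers that lacked caspase-8 together with MLKL, over all genes. Livers were taken by their genotype label: 3 livers labelled Casp8 TNFR1 dKO (Casp8-/- Tnfr1-/-) and 3 labelled Casp8 MLKL dKO (Casp8-/- Mlkl-/-), which are 6 of the 11 livers in the series. All embryos were at E15.5, untreated and on a C57BL/6N background, with the Casp8 allele made in C57BL/6N ES cells and the Mlkl and Tnfr1 alleles backcrossed to that strain. Deletion of Casp8 was shared by both groups, so the groups differed in whether Tnfr1 or Mlkl was also missing. Each allele was a germline deletion, absent from hepatocytes, blood cells and vessels alike, and the tissue was whole liver, in which fewer cells of a type and less RNA per cell cannot be told apart. The other 5 livers, 3 WT and 2 labelled Tnfr1 KO (Tnfr1-/-), gave the background levels. They also entered the statistical fit.

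Caspase-8 is the protease that starts apoptosis downstream of death receptors, and it also restrains necroptosis, a lytic death in which the kinase RIPK3 activates the membrane-disrupting protein MLKL. TNFR1 is the main receptor for TNF and can feed both deaths, while ZBP1, a sensor of Z-form nucleic acids, and TLR3 or TLR4 can engage RIPK3 without it. Type I interferons act through JAK kinases and STAT and IRF factors on the interferon-stimulated genes, which include antiviral effectors, nucleic acid sensors and antigen presentation genes. The fetal liver is a site of erythropoiesis whose resident macrophages, the Kupffer cells, take up dying cells.

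RNA-seq counts on the exons of each gene summed to 23194155 to 31870200 reads in the 6 livers. Levels are CPM, the counts of a gene scaled by a library size normalized with TMM. They compare a gene between livers and not genes with each other. Both groups held liver transcripts: Alb, the gene of serum albumin, measured 22881 to 124640 CPM and Afp, the gene of alpha-fetoprotein, 21025 to 53542 CPM. In each group 1 liver stood apart. Casp8-/- Mlkl-/- liver 1 had a summed level of 22 hepatocyte genes of 247360 CPM, against 55644 and 66681 in livers 2 and 3, and a lower sum of 21 replication genes, at 5999 CPM against 9838 and 9056. Casp8-/- Tnfr1-/- liver 3 was the only liver of the 6 that expressed Xist, at 59817 counts against at most 10 in the others. It had a summed level of 18 striated muscle genes of 2309 CPM, against 87.8 and 64.6 in livers 1 and 2 and 42.1 to 76.6 in the Casp8-/- Mlkl-/- livers. It also had an erythroid sum over 23 genes of 198830 CPM, against 53033 to 63148 in the other 5 of the 6, and a hypoxia and glycolysis sum over 14 genes of 7694 CPM, against 1581 to 2428. Across genes its log2 CPM correlated with the other 5 livers at 0.849 to 0.891, and those 5 with each other at 0.953 to 0.992 (Pearson's r, a description, since genes are not replicates). Results are therefore given with and without these 2 livers. The part of sex, muscle transcripts and hepatocyte transcripts in each result was not tested.

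A gene was called at an adjusted p under 0.05 in the quasi-likelihood test of edgeR, adjusted by Benjamini and Hochberg's method over 17243 genes. Below, an adjusted p is from this test. Of those genes, 265 were called higher in Casp8-/- Tnfr1-/- livers, or 1.54%, and 20 lower, or 0.116% (1.65% in all). The median log2 fold change was 1.87 over the genes called higher and -2.92 over the genes called lower, and it was -0.03 over all genes. Every Casp8-/- Tnfr1-/- liver lay above every Casp8-/- Mlkl-/- liver in all 265, against 9.61% of all genes, and below in all 20, against 6.15%. The genes were called on these same livers, so this separation follows largely from the call and is a description. In 263 of the 265 genes the 3 Casp8-/- Tnfr1-/- livers also lay above the 5 background livers, a pattern seen in 7.43% of all genes, and in 16 of the 20 they lay below all the others, seen in 3.32%. Unadjusted p was under 0.05 for 2644 genes. An exact permutation test of 3 livers against 3 cannot go below p = 0.1 for a single gene.

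**Figure D1:**
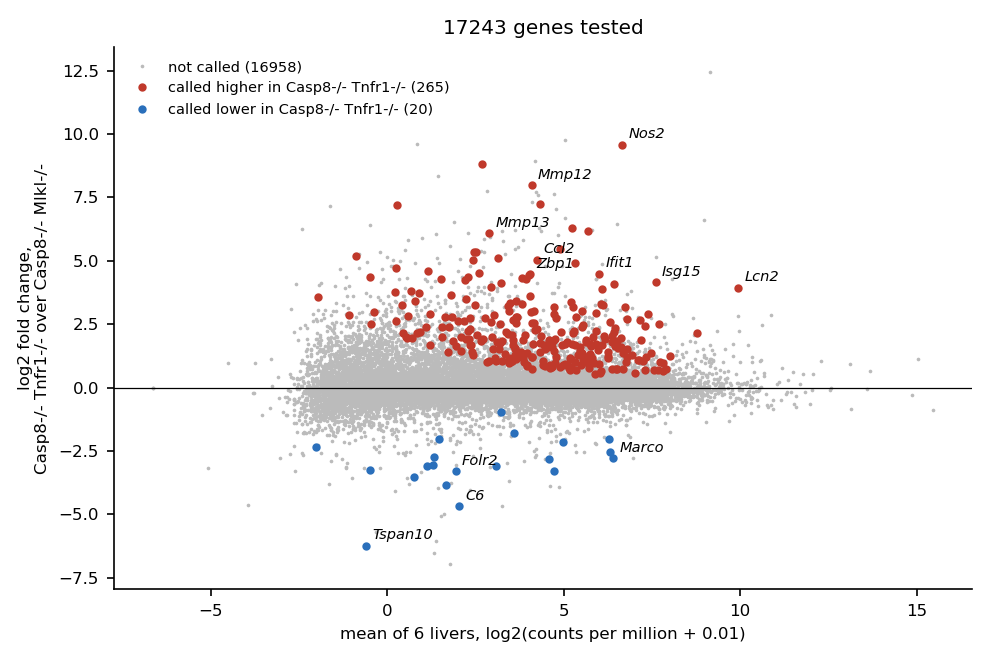
Each point is 1 of 17243 genes, placed by its mean over the 6 Casp8-null livers (x axis, log2 of CPM + 0.01) and by its log2 fold change (y axis, Casp8-/- Tnfr1-/- over Casp8-/- Mlkl-/-). Red points are the 265 genes called higher and blue points the 20 called lower; most called genes lie above 0, from low to high abundance.

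The number of calls followed which livers were in the fit. With only the 6 compared livers in it, 10 genes were called higher (0.0612%) and 1 lower (0.00612%). Without Casp8-/- Mlkl-/- liver 1, 518 genes were called higher (3.03%) and 46 lower (0.269%). Without Casp8-/- Tnfr1-/- liver 3, 482 were called higher (2.83%) and 57 lower (0.335%). With both left out, 2032 were called higher (12%) and 1035 lower (6.10%), and these held 264 of the 265 and all 20 genes called with all livers. The groups then had 2 livers each. With all livers in, the alternative tool DESeq2 called 4.55% of genes higher and 0.905% lower, and limma-voom 1.68% and 0.0986%. A share given here is the background of the list counts below for the same setting. Leaving out Casp8-/- Mlkl-/- liver 2 or 3 instead kept the outlying liver 1 in a group of 2, and 71 and 73 genes were called higher. Leaving out a background liver gave 131 to 162 genes higher and 11 lower, and leaving out Casp8-/- Tnfr1-/- liver 1 or 2 gave 348 and 260 higher. Among 83 called genes followed through every setting, 9 kept their call under all 23 alternatives tried, single livers left out included: Mlkl, Zbp1, Cxcl10, Ccl24, Ccl7, Mmp12, Mmp13, Acod1 and Gpnmb. Of these, Mlkl is the gene deleted in the Casp8-/- Mlkl-/- livers.

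The promoter letters of several called genes are shown because they carry the core of the interferon-stimulated response element (ISRE), a site bound by IRF proteins. RefSeq windows of 300 bases, from 250 before to 50 after the gene start, were searched on both strands for GAAA, any 2 bases and GAAA again, and also for TTCNNNGAA, the core of the gamma-activated site (GAS); matches may overlap. Of 27025 genes with a window, 3.49% held the first and 8.47% the second. Of the 265 genes called higher, 201 had a window, and 41 of these (20.4%) held the ISRE core and 32 (15.9%) the GAS core. Of the 20 genes called lower, 14 had a window and none held either. Fewer than 80% of the genes on each side had a window, so a comparison of these shares is void and they are a description. The 5 genes with the smallest p that held the ISRE core are printed, with Isg15 for its 3 overlapping matches. Each line gives the strand of the gene from 5′ to 3′, with the matched letters in capitals; a match is not a shown binding site.
Cxcl10 (chr5:92348840-92349139, GRCm38.p6, minus strand): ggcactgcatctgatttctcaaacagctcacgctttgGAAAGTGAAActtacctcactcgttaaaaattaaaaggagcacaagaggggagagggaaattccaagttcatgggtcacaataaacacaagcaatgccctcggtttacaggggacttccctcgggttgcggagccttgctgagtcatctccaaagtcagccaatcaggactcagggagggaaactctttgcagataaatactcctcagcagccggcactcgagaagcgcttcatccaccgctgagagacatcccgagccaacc
Mmp13 (chr9:7272264-7272563, GRCm38.p6, plus strand): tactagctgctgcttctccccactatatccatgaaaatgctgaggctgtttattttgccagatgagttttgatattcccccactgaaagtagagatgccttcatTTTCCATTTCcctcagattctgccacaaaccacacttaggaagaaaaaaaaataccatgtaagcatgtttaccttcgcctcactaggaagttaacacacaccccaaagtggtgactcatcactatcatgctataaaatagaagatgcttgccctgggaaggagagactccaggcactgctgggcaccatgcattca
Irgm1 (chr11:48871371-48871670, GRCm38.p6, minus strand): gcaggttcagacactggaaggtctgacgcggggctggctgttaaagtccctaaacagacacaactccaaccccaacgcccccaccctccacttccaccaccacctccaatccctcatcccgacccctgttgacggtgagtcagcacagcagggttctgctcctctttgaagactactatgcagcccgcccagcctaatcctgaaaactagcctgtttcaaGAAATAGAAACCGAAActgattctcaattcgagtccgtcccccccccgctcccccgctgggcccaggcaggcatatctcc
Ifit1 (chr19:34640639-34640938, GRCm38.p6, plus strand): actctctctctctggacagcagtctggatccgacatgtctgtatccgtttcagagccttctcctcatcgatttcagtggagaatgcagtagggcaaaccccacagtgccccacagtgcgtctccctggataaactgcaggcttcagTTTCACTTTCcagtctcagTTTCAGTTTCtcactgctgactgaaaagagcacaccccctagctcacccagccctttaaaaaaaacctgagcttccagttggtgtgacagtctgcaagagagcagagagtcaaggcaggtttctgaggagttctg
Bst2 (chr8:71537423-71537722, GRCm38.p6, minus strand): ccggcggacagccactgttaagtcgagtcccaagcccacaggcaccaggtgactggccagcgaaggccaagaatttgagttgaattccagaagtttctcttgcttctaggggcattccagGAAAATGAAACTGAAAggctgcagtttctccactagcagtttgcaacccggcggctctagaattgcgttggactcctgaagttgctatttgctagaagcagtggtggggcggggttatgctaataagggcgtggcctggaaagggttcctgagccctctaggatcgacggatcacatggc
Isg15 (chr4:156200769-156201068, GRCm38.p6, minus strand): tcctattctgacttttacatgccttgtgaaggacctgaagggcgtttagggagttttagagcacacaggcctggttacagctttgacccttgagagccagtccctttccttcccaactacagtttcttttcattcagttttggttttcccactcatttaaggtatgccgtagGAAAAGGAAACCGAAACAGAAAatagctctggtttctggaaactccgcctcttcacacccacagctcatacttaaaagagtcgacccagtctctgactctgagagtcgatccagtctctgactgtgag

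The match began 213 bases before the start in Cxcl10 and 146 in Mmp13. Overlapping matches began 30 and 24 bases before the start in Irgm1, and 130 and 124 in Bst2. In Ifit1, a pair of separate matches began 104 and 85 bases before the start, and in Isg15 the 3 matches began 78, 72 and 66 bases before it. By list, the share of genes with a window that held the ISRE core was 12 of 24 antiviral effectors, 12 of 17 GBP, IRG and schlafen genes, 4 of 15 MHC class I genes, 1 of 12 chemokine genes and 0 of 15 Kupffer cell markers.

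Of the deleted genes, Mlkl (chromosome 8, 111311797 to 111338177) measured 0.730, 1.22 and 1.03 CPM in Casp8-/- Mlkl-/- livers and 14.7, 13.3 and 24.6 CPM in Casp8-/- Tnfr1-/- livers. The groups were far apart, and the second lay above WT livers too, at 4.32 ± 0.121 CPM (SD, n = 3). Between both groups the log2 fold change was 4.12 ± 0.31 (SE, adjusted p = 2.34e-04), which holds the deletion on one side. Against WT, the Casp8-/- Tnfr1-/- livers were higher by a log2 fold change of 2.02 (adjusted p = 0.00328). Of 69 genes tested within 5 Mb of Mlkl, itself included, no other was called, against 1.65% of all genes.

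Casp8 (chromosome 1, 58795374 to 58847503) kept some counts in both groups. It measured 7.82, 9.21 and 10.2 CPM in Casp8-/- Mlkl-/- livers and 13.1, 11.5 and 21.9 CPM in Casp8-/- Tnfr1-/- livers, against 30.6 ± 2.98 CPM (SD, n = 3) in WT. The Casp8-null groups did not overlap, but the difference did not pass (log2 fold change 0.77 ± 0.24, SE, adjusted p = 0.169). Tnfrsf1a, which encodes TNFR1 (chromosome 6, 125349362 to 125362484), measured 77.2, 52.5 and 45.4 CPM in Casp8-/- Mlkl-/- livers, and 76.9, 76.0 and 425 CPM in Casp8-/- Tnfr1-/- livers. Its counts were thus not lower where it was deleted, nor in Tnfr1-/- livers, at 49.8 and 50.5 CPM against 47.1 to 53.4 CPM in WT, so they do not check that label. The log2 fold change of 1.72 ± 0.59 (SE, adjusted p = 0.215) was 0.39 without Casp8-/- Tnfr1-/- liver 3. Within 5 Mb of Tnfrsf1a, 138 genes were tested and 3 called (Usp18, Clec4d and C3ar1), against 1.65% of all genes.

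**Figure D2:**
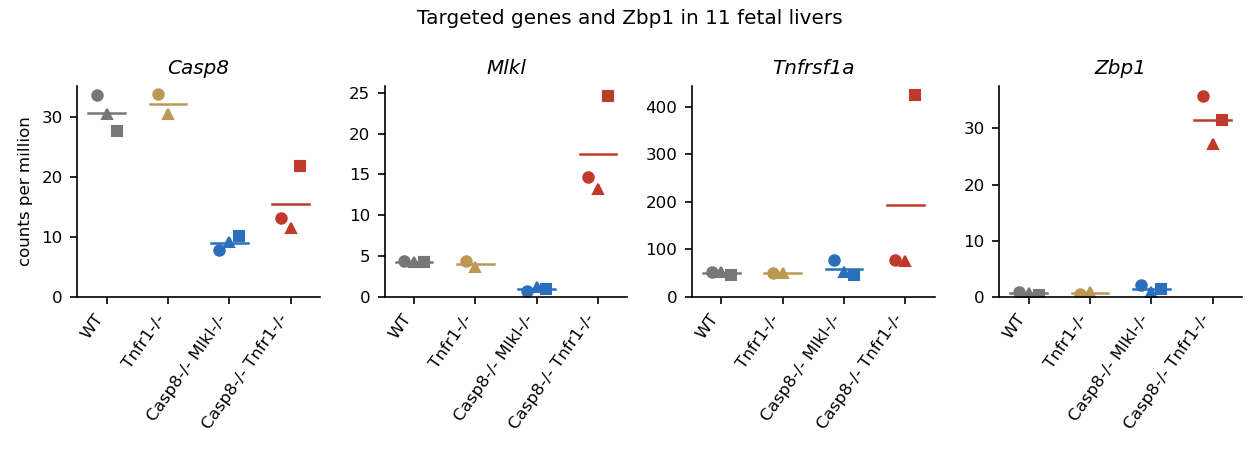
CPM (y axis, linear from 0) of Casp8, Mlkl, Tnfrsf1a and Zbp1 in each of the 11 livers by genotype (x axis), with circles, triangles and squares for livers 1, 2 and 3 and a line at each mean. Mlkl and Zbp1 are highest in the 3 Casp8-/- Tnfr1-/- livers, Casp8 is lower in both Casp8-null groups than in WT, and Tnfrsf1a stands out in 1 liver at 425 CPM.

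Of 26 tested genes of death signalling, 5 rose (Mlkl, Zbp1, Tlr3, Adar and Eif2ak2) and none fell, against 1.54% and 0.116% of all genes. Mlkl is deleted in the Casp8-/- Mlkl-/- livers, so its call follows from the design, and Zbp1 also counts among the nucleic acid sensors below. The median log2 fold change was 0.66 over the list and -0.03 over all genes. Of the 26, 13 were called higher and 2 lower without both outlying livers, against 12% and 6.10% of all genes. The count was 3 higher without Casp8-/- Mlkl-/- liver 2 or 3, and 2 higher with only the 6 livers in the fit. Zbp1 measured 2.07, 0.872 and 1.34 CPM in Casp8-/- Mlkl-/- livers and 35.8, 27.1 and 31.4 CPM in Casp8-/- Tnfr1-/- livers. All 3 livers of the second group were alike and far above the first. Its log2 fold change was 4.47 ± 0.36 (SE, adjusted p = 4.46e-04), and 4.87 with both outlying livers left out. Tlr3, an endosomal receptor for double-stranded RNA, measured 4.95, 3.28 and 4.05 CPM against 13.2, 10.7 and 11.3 CPM, a log2 fold change of 1.52 ± 0.23 (SE, adjusted p = 0.0116).

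Adar, whose editing of double-stranded RNA limits its sensing, measured 93.2, 101 and 98.1 CPM in Casp8-/- Mlkl-/- livers and 246, 222 and 200 CPM in Casp8-/- Tnfr1-/- livers. The ranges within each group were narrow, and the log2 fold change was 1.19 ± 0.12 (SE, adjusted p = 0.00143). Eif2ak2, the kinase PKR that stops translation on double-stranded RNA, measured 42.7, 49.7 and 47.2 CPM against 135, 105 and 74.0 CPM, with liver 3 the lowest of the second group. Its log2 fold change was 1.17 ± 0.20 (SE, adjusted p = 0.0194). The calls of Tlr3 and Eif2ak2 were lost without Casp8-/- Mlkl-/- liver 2 or 3, and that of Eif2ak2 also without either Tnfr1-/- liver.

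Ripk3, the kinase that activates MLKL, measured 16.1, 23.3 and 23.2 CPM against 24.3, 27.5 and 59.6 CPM and did not pass (adjusted p = 0.255). Ripk1, the kinase of the TNFR1 complex, measured 52.7, 51.5 and 53.1 CPM against 55.2, 54.4 and 34.9 CPM, and its log2 fold change of -0.12 turned to 0.07 without Casp8-/- Tnfr1-/- liver 3 (adjusted p = 0.732 and 0.785). Tnf itself measured 1.26, 0.785 and 0.497 CPM against 4.61, 3.99 and 2.17 CPM. The groups did not overlap, but the difference did not pass with all livers in (log2 fold change 2.09 ± 0.53, SE, adjusted p = 0.0922; 0.0320 without Casp8-/- Tnfr1-/- liver 3). Tlr4 measured 11.6, 10.8 and 8.18 CPM against 17.1, 15.1 and 19.6 CPM (adjusted p = 0.0767).

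Genes of pyroptosis, the lytic death carried by gasdermin pores, rose in 3 of 17 tested, and none fell, against 1.54% and 0.116% of all genes. Casp4, which encodes caspase-11, the mouse sensor of cytosolic lipopolysaccharide, measured 3.0, 1.74 and 2.48 CPM against 10.4, 9.60 and 38.6 CPM. Liver 3 of the Casp8-/- Tnfr1-/- group was well above its pair, and the log2 fold change was 3.02 ± 0.55 (SE, adjusted p = 0.0281) and 2.06 without that liver. Gsdmd, the pore-forming gasdermin, measured 31.3, 17.7 and 18.2 CPM against 47.4, 48.6 and 53.2 CPM (log2 fold change 1.15 ± 0.22, SE, adjusted p = 0.0366). Casp1 measured 5.76, 5.75 and 4.82 CPM against 12.4, 12.2 and 9.29 CPM (log2 fold change 1.06 ± 0.21, SE, adjusted p = 0.0386). These are the weaker calls: Casp4 was lost in 6, and Gsdmd and Casp1 in 9, of the 11 fits that left out 1 liver, those without Casp8-/- Mlkl-/- liver 2 or 3 among them. Without either of these livers, or with only the 6 livers in the fit, edgeR called 0 of the 17 (6 or 7 at an unadjusted p under 0.05). Without both outlying livers it called 10 higher and 1 lower, against 12% and 6.10% of all genes. With all livers DESeq2 called 6 higher, against 4.55% of all genes.

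Interferon transcripts themselves were close to absent. Over 22 interferon genes of all types, the 3 Casp8-/- Mlkl-/- livers held 3, 2 and 1 counts and the 3 Casp8-/- Tnfr1-/- livers 4, 2 and 1, of the depths given above. Ifnb1 had 0, 0 and 1 counts against 1, 1 and 0. A difference in interferon transcripts was not detectable at this depth. The receptor subunits were well expressed: Ifnar1 measured 92.0, 82.6 and 80.0 CPM against 85.8, 76.9 and 105 CPM, and none of the 6 tested ligand and receptor genes was called with all livers in by edgeR, DESeq2 or limma-voom (2 had an unadjusted p under 0.05). By edgeR 2 were called higher without Casp8-/- Mlkl-/- liver 1, and 4 without both outlying livers, against 3.03% and 12% of all genes. With quality weights and all livers in, limma-voom called 2 of the 6 higher, against 11% of all genes.

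The signal transducers downstream rose in part. Of 16 tested genes of the JAK, STAT and IRF list, 5 rose and none fell, against 1.54% and 0.116% of all genes. The median log2 fold change was 0.99. Irf7, the factor that amplifies type I interferon production, measured 46.4, 19.6 and 22.1 CPM in Casp8-/- Mlkl-/- livers and 188, 156 and 227 CPM in Casp8-/- Tnfr1-/- livers (log2 fold change 2.70 ± 0.31, SE, adjusted p = 0.00300). Irf9 measured 70.3, 61.3 and 69.5 CPM against 153, 133 and 181 CPM (1.22 ± 0.14 on the log2 scale, SE, adjusted p = 0.00269). The livers of each group were close for Irf9, while Casp8-/- Mlkl-/- liver 1 was the highest of its group for Irf7.

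Usp18, which removes ISG15 and blocks the type I receptor, measured 19.4, 9.21 and 10.7 CPM against 99.5, 93.5 and 179 CPM (log2 fold change 3.24 ± 0.37, SE, adjusted p = 0.00247). Stat2 measured 65.9, 39.2 and 42.0 CPM against 121, 109 and 213 CPM (1.59 ± 0.28, adjusted p = 0.0216), and its call was lost without Casp8-/- Mlkl-/- liver 2 or 3. Genes of the list that did not pass include Jak1, Tyk2 and Irf3, whose groups overlapped, and Irf1 and Socs3, whose groups did not. Irf1 measured 45.4, 19.3 and 19.1 CPM against 65.7, 57.3 and 85.1 CPM (adjusted p = 0.0826; 0.00165 without Casp8-/- Mlkl-/- liver 1).

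Antiviral effector genes made up the largest set of calls. Of 31 tested, 23 rose and none fell, against 1.54% and 0.116% of all genes. The median log2 fold change was 2.67 against -0.03 over all genes. In 28, every Casp8-/- Tnfr1-/- liver lay above every Casp8-/- Mlkl-/- liver, against 9.61% of all genes. The list summed to 1692, 1131 and 1116 CPM in Casp8-/- Mlkl-/- livers, and to 3386, 3146 and 7448 CPM in Casp8-/- Tnfr1-/- livers. WT livers lay at 1084 to 1112 CPM. So in the sum Casp8-/- Mlkl-/- livers 2 and 3 were near WT and liver 1 was above it. The Casp8-/- Tnfr1-/- livers were above all of these, with liver 3 the highest. The sum is weighted to abundant genes and does not place each gene at its WT level. Over the 31 genes the median log2 fold change of the Casp8-/- Mlkl-/- livers over WT, liver 1 included, was 1.08. None of the genes was called in that comparison. The count called was 26 without Casp8-/- Mlkl-/- liver 1, 26 without Casp8-/- Tnfr1-/- liver 3, and 30 without both. It fell to 12 and 13 without Casp8-/- Mlkl-/- liver 2 or 3, and to 0 when the fit held only the 6 livers compared, where 28 had an unadjusted p under 0.05. DESeq2 called 27 and limma-voom 22 with all livers in, against 4.55% and 1.68% of all genes.

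Ifit1, which binds foreign RNA caps, measured 8.23, 3.52 and 4.51 CPM against 95.6, 87.1 and 184 CPM. The second group was above the first in each liver, and the log2 fold change was 4.50 ± 0.41 (SE, adjusted p = 8.96e-04). Isg15, a ubiquitin-like modifier, measured 38.2, 9.09 and 15.1 CPM against 265, 270 and 570 CPM (log2 fold change 4.15 ± 0.55, SE, adjusted p = 0.00596). Ifitm3, which blocks viral entry, measured 56.3, 28.3 and 31.6 CPM against 245, 239 and 395 CPM (2.92 ± 0.30, adjusted p = 0.00135). In all 3 genes Casp8-/- Mlkl-/- liver 1 was the highest of its group and Casp8-/- Tnfr1-/- liver 3 of its own.

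Bst2, Cmpk2, Herc6 and Samhd1 gave smaller changes with smaller errors than Ifit1, Isg15 and Ifitm3. Bst2, the tether that holds virions at the membrane, measured 28.9, 16.4 and 23 CPM against 89.6, 94.8 and 90.0 CPM (log2 fold change 2.01 ± 0.19, SE, adjusted p = 0.00112). Cmpk2, a nucleotide kinase, measured 49.7, 36.2 and 35.4 CPM against 152, 130 and 136 CPM (1.78 ± 0.17, adjusted p = 8.96e-04). Herc6, an E3 ligase for ISG15, measured 12.2, 9.73 and 10.7 CPM against 44.5, 39.7 and 65.4 CPM (2.20 ± 0.21, adjusted p = 8.96e-04). Samhd1, which depletes nucleotides, measured 82.9, 99.2 and 90.0 CPM against 192, 169 and 217 CPM (1.09 ± 0.13, adjusted p = 0.00430).

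Among the 8 members that did not pass were Rsad2, Uba7, Ube2l6, Mx1, Ifi27, Isg20 and Tor3a. Uba7, the activating enzyme for ISG15, measured 141, 165 and 169 CPM against 315, 291 and 1421 CPM, and its adjusted p of 0.0935 was 0.00183 without Casp8-/- Tnfr1-/- liver 3. Members of the Ifit3, Oas1, Mx, Gbp, Tgtp, Slfn and H2 families have near-identical copies, between which reads may be split, so single values of these genes are uncertain.

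**Figure D3:**
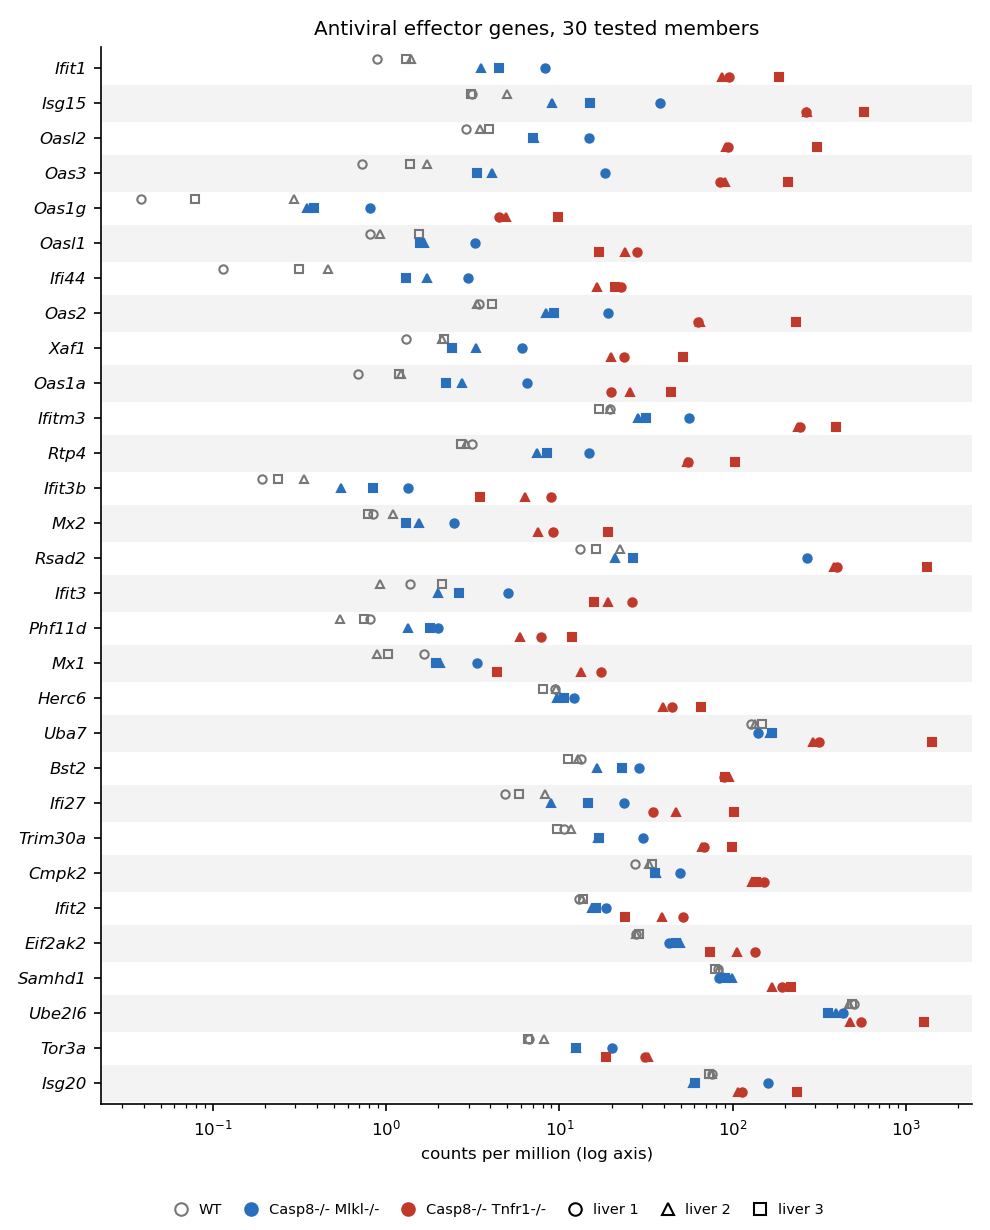
CPM on a log axis (x) of 30 of the 31 tested antiviral effector genes (rows, ordered by log2 fold change) in the WT (open grey), Casp8-/- Mlkl-/- (blue) and Casp8-/- Tnfr1-/- (red) livers, with circles, triangles and squares for livers 1, 2 and 3. Red points lie right of all blue points in 28 rows; the blue circle is often the highest of its group and the red square of its own.

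Sensors of nucleic acids rose in 12 of 20 tested genes and none fell, against 1.54% and 0.116% of all genes. The median log2 fold change was 1.42. Ifih1, the sensor MDA5 for long double-stranded RNA, measured 38.8, 25.7 and 26.4 CPM against 136, 111 and 93.6 CPM (log2 fold change 1.91 ± 0.21, SE, adjusted p = 0.00246). Dhx58, the related helicase LGP2, measured 8.19, 5.0 and 6.11 CPM against 32.2, 30.2 and 32.1 CPM (2.29 ± 0.20, adjusted p = 7.14e-04). Parp14 measured 52.0, 33.5 and 34.1 CPM against 183, 142 and 143 CPM (1.97 ± 0.20, adjusted p = 0.00138). For each of these the groups stood well apart in every liver. Mavs, the adaptor of the RNA sensors, was the member whose groups were apart the other way, at 118, 116 and 107 CPM against 84.5, 78.3 and 77.5 CPM (log2 fold change -0.50, adjusted p = 0.0522). DESeq2 and limma-voom called 1 gene of the list lower, as did edgeR without either or both of the outlying livers. Endosomal Tlr7 and Tlr9 overlapped between groups.

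Interferon-inducible GTPases and schlafen genes rose in 11 of 23 tested, and none fell, against 1.54% and 0.116% of all genes (median log2 fold change 1.87). Irgm1, a GTPase of vacuole defence and autophagy, measured 73.0, 55 and 59.2 CPM against 251, 196 and 238 CPM (log2 fold change 1.87 ± 0.16, SE, adjusted p = 5.26e-04). Gbp3 measured 6.61, 4.27 and 4.24 CPM against 37.2, 28.5 and 22.1 CPM (2.54 ± 0.27, adjusted p = 0.00196). Both had groups that were apart with little spread. Slfn4, a myeloid schlafen, measured 27.1, 2.38 and 2.14 CPM against 149, 151 and 833 CPM, with a wide spread in each group (log2 fold change 5.17 ± 1.11, SE, adjusted p = 0.0544, not called; 0.00586 without Casp8-/- Mlkl-/- liver 1). Iigp1 measured 92.7, 3.72 and 6.0 CPM against 72.1, 50.6 and 68.0 CPM, so the group difference turned on 1 liver (adjusted p = 0.652). Without Casp8-/- Mlkl-/- liver 1, 19 of the 23 genes were called. Without liver 2 or 3 of that group, 3 and 4 were.

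Class I antigen presentation rose in 7 of 17 tested genes, against 1.54% of all genes, with a median log2 fold change of 1.04. In 15 of the 17 every Casp8-/- Tnfr1-/- liver lay above every Casp8-/- Mlkl-/- liver, against 9.61% of all genes. Tap1, a subunit of the peptide transporter, measured 21, 11.8 and 9.06 CPM against 71.0, 61.8 and 61.5 CPM (log2 fold change 2.22 ± 0.29, SE, adjusted p = 0.00569). Nlrc5, the transactivator of class I genes, measured 4.78, 3.02 and 2.06 CPM against 30.6, 22 and 14.5 CPM (2.77 ± 0.45, adjusted p = 0.0160). Tapbp, the peptide-loading chaperone tapasin, measured 111, 76.7 and 74.0 CPM against 197, 191 and 172 CPM (1.10 ± 0.16, adjusted p = 0.0107). B2m, the light chain, measured 513, 287 and 272 CPM against 638, 588 and 1002 CPM and did not pass (adjusted p = 0.103). Only Tap1 of these kept its call without Casp8-/- Mlkl-/- liver 2 or 3, where 1 of the 17 genes was called. The count was 14 without Casp8-/- Mlkl-/- liver 1, 9 without Casp8-/- Tnfr1-/- liver 3 and 17 without both. With all livers in, none of 7 class II genes was called by edgeR, DESeq2 or limma-voom, or had an unadjusted p under 0.05. With quality weights limma-voom called 1 higher, against 11% of all genes. Without both outlying livers edgeR called 1 higher, against 12% of all genes.

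Chemokine genes gave some of the largest changes. Of 19 tested, 9 rose and none fell, against 1.54% and 0.116% of all genes (median log2 fold change 2.67). Cxcl10, a T cell attractant induced by interferon, had the smallest p of the genes that carry the ISRE letters printed above. It measured 15.6, 12.3 and 13.9 CPM in Casp8-/- Mlkl-/- livers and 125, 103 and 92.7 CPM in Casp8-/- Tnfr1-/- livers, and WT livers lay at 5.14 ± 0.294 CPM (SD, n = 3). The livers within each group were close, and the log2 fold change was 2.94 ± 0.18 (SE, adjusted p = 1.68e-04).

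The monocyte attractants rose from very low levels. Ccl2 measured 0.892, 1.42 and 0.955 CPM against 21.4, 23.8 and 64.5 CPM (log2 fold change 5.05 ± 0.47, SE, adjusted p = 8.96e-04). Ccl7 measured 0.203, 0.349 and 0.229 CPM against 8.24, 9.29 and 15.6 CPM (5.36 ± 0.60, adjusted p = 0.00246). Ccl24, an eosinophil attractant made by macrophages, measured 1.54, 1.45 and 1.26 CPM against 23, 24.7 and 44.8 CPM (4.44 ± 0.31, adjusted p = 1.68e-04). Unlike Ccl2 and Ccl7, Ccl24 lay at 6.15 CPM on average in WT, above the Casp8-/- Mlkl-/- livers. Ccl3 and Ccl4, which attract monocytes and T cells, measured 7.98 to 11.3 and 4.79 to 11.5 CPM in Casp8-/- Tnfr1-/- livers, against at most 1.25 and 0.535 CPM in the other group (adjusted p = 0.0160 and 0.00224).

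Neutrophil attractants were among them. Cxcl1 measured 2.07, 1.19 and 0.841 CPM against 32.0, 33.2 and 16 CPM (log2 fold change 4.30 ± 0.46, SE, adjusted p = 0.00193). Cxcl2 had 2, 0 and 0 counts against 77, 56 and 602 counts (adjusted p = 0.0263), so no fold is given, and its call was lost in 6 of the 11 fits that left out 1 liver: each Casp8-/- Mlkl-/- liver, each Tnfr1-/- liver and WT liver 1. Cxcl12, the stromal chemokine that retains hematopoietic cells, lay lower, at 164, 173 and 164 CPM against 123, 128 and 88.4 CPM, and did not pass (log2 fold change -0.56, adjusted p = 0.126). The T cell attractant Cxcl9 had 19, 11 and 7 counts against 155, 88 and 14 (adjusted p = 0.117), and Ccl5 overlapped between groups. The list kept 9 calls without Casp8-/- Mlkl-/- liver 1, 10 without Casp8-/- Tnfr1-/- liver 3 and 13 without both, with Cxcl12 then also called lower. It kept 6 without Casp8-/- Mlkl-/- liver 2 or 3.

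Of 22 tested cytokine and receptor genes, 4 rose and none fell, against 1.54% and 0.116% of all genes. Csf1, the growth factor of macrophages, measured 30.1, 28.7 and 30.8 CPM against 69.9, 66.9 and 68.8 CPM, which is among the tightest of all the changes (log2 fold change 1.2 ± 0.11, SE, adjusted p = 8.96e-04). Il1rn, the natural antagonist of interleukin-1, measured 31.9, 13.6 and 18.5 CPM against 114, 92.8 and 94.5 CPM (2.24 ± 0.30, adjusted p = 0.00596). Csf2rb, the shared receptor chain for GM-CSF and interleukin-3, measured 38.1, 28.4 and 28.9 CPM against 77.3, 86.7 and 144 CPM (1.69 ± 0.24, adjusted p = 0.00876), and lost its call without Casp8-/- Mlkl-/- liver 2 or 3. Il1r2, a decoy receptor for interleukin-1, measured 2.80, 0.697 and 0.764 CPM against 13.6, 15.9 and 274 CPM. Its log2 fold change of 6.17 ± 1.28 (SE, adjusted p = 0.0449) was 3.40 without Casp8-/- Tnfr1-/- liver 3 (adjusted p = 0.0112). Its call was lost in 8 of the 11 fits that left out 1 liver. Il6 was scarce, at 3, 8 and 7 counts against 21, 18 and 25. In the NF-kB feedback list 1 of 13 genes rose, against 1.54% of all genes. It was Bcl3, at 13, 9.12 and 8.68 CPM against 26.2, 27.1 and 59.9 CPM (adjusted p = 0.0237). Its call was lost without Casp8-/- Mlkl-/- liver 2 or 3 or Tnfr1-/- liver 1.

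Matrix proteases of macrophages changed from near absence. Mmp12, macrophage elastase, had 4, 3 and 4 counts in Casp8-/- Mlkl-/- livers and 606, 725 and 1025 counts in Casp8-/- Tnfr1-/- livers, or 18.5, 25.0 and 58.4 CPM in the latter. WT livers had 3 to 6 counts, so only 1 genotype expressed it beyond a few reads. Its log2 fold change was 7.97 ± 0.56 (SE, adjusted p = 1.68e-04). Mmp13, a collagenase, had 7, 9 and 2 counts against 472, 334 and 309 counts (6.08 ± 0.43, adjusted p = 1.68e-04). Timp1, an inhibitor of these proteases, measured 1.22, 1.77 and 1.45 CPM against 14.9, 19.5 and 52.5 CPM (4.28 ± 0.47, adjusted p = 0.00225). These 3 rose of 11 tested members, against 1.54% of all genes, and the other 8 did not pass, Mmp2 and Mmp14 among them.

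Genes of activated macrophages rose in 8 of 24 tested, and 1, Marco, fell, against 1.54% and 0.116% of all genes. The list summed to 7428, 1945 and 2279 CPM against 2806, 3024 and 5881 CPM, so Casp8-/- Mlkl-/- liver 1 was the highest of the 6. Acod1, which makes itaconate, measured 0.203, 0.378 and 0.344 CPM against 8.63, 9.19 and 13.3 CPM (log2 fold change 5.03 ± 0.35, SE, adjusted p = 1.68e-04). Gpnmb, a glycoprotein of lipid-laden phagocytes, measured 2.68, 1.86 and 3.25 CPM against 79.2, 108 and 46.4 CPM (4.91 ± 0.40, adjusted p = 4.46e-04). Both were far apart between groups in every liver. Msr1, a scavenger receptor, measured 21.5, 17.4 and 13.6 CPM against 63.9, 63.3 and 43.9 CPM (1.71 ± 0.22, adjusted p = 0.00569). Trem2, a receptor for lipids on phagocytes, measured 1.46, 1.71 and 1.87 CPM against 6.13, 9.57 and 4.50 CPM (2.0 ± 0.32, adjusted p = 0.0156), and lost its call without Casp8-/- Mlkl-/- liver 2 or 3.

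Nos2, inducible nitric oxide synthase, had the largest fitted change of all genes called. It had 5, 10 and 7 counts in Casp8-/- Mlkl-/- livers and 318, 172 and 10282 counts in Casp8-/- Tnfr1-/- livers, or 9.70, 5.92 and 586 CPM. Liver 3 alone was far above the other two. The log2 fold change of 9.58 ± 1.97 (SE, adjusted p = 0.0443) was 4.91 without that liver (adjusted p = 0.00199), and the call was lost without any Casp8-/- Mlkl-/- or background liver.

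Markers of Kupffer cells and fetal liver macrophages went the other way: of 21 tested, 4 fell and none rose, against 0.116% and 1.54% of all genes. The median log2 fold change was -0.88. Folr2, a folate receptor of resident macrophages, measured 10.4, 4.59 and 5.85 CPM in Casp8-/- Mlkl-/- livers and 0.671, 0.688 and 0.741 CPM in Casp8-/- Tnfr1-/- livers. WT livers lay at 4.57 ± 0.362 CPM (SD, n = 3), near Casp8-/- Mlkl-/- livers 2 and 3. The log2 fold change was -3.31 ± 0.33 (SE, adjusted p = 0.00135). Marco, a scavenger receptor, measured 240, 90.7 and 114 CPM against 28.8, 21.9 and 13.4 CPM, and 49.1 to 71.9 CPM in WT (-2.79 ± 0.40, adjusted p = 0.00868).

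Timd4, the phosphatidylserine receptor TIM-4 by which resident macrophages bind dying cells, measured 62.8, 30.7 and 32.6 CPM against 9.88, 6.26 and 1.77 CPM (log2 fold change -2.80 ± 0.51, SE, adjusted p = 0.0283). Adgre1, which encodes F4/80, measured 170, 105 and 100.2 CPM against 40.2, 38.5 and 13.1 CPM (-2.03 ± 0.38, adjusted p = 0.0309). For Marco, Timd4 and Adgre1 the WT livers lay between both Casp8-null groups. Timd4 and Adgre1 lost their calls in 8 of the 11 fits that left out 1 liver, namely any background liver, Casp8-/- Mlkl-/- liver 2 or 3, or Casp8-/- Tnfr1-/- liver 2. Casp8-/- Mlkl-/- liver 1 was the highest and Casp8-/- Tnfr1-/- liver 3 the lowest in these 3 genes, and with both left out the log2 fold changes were -2.0 for Marco, -1.95 for Timd4, -1.37 for Adgre1 and -2.91 for Folr2.

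Other macrophage genes did not share the fall to the same extent. The complement genes C1qa and C1qc, the receptor Csf1r, the efferocytosis receptor Mertk and the iron exporter Slc40a1 had groups that did not overlap, with lower values in Casp8-/- Tnfr1-/- livers, but none passed. Slc40a1 was the nearest, at 547, 295 and 306 CPM against 211, 200 and 143 CPM (log2 fold change -1.05, adjusted p = 0.0751). Csf1r measured 283, 117 and 111 CPM against 98.6, 106 and 73.8 CPM, and its log2 fold change of -0.88 (adjusted p = 0.258) was -0.29 without Casp8-/- Mlkl-/- liver 1. Lyve1 overlapped, and the lysosomal marker Cd68 lay higher, at 35.4, 23.8 and 25.4 CPM against 41.2, 40.7 and 47.8 CPM (adjusted p = 0.184). Clec4f, a marker of mature Kupffer cells, measured 5.47, 0.203 and 0.726 CPM against 1.16, 0.551 and 0.114 CPM, with overlapping groups (adjusted p = 0.440), and 10.5 to 13.7 CPM in WT, above all 6. Vsig4 and Cd163 were scarce, at most 4.46 and 3.48 CPM in the 6 livers. With both outlying livers left out, 8 of the 21 were lower and 1 higher, against 6.10% and 12% of all genes. The median was then -0.23.

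**Figure D4:**
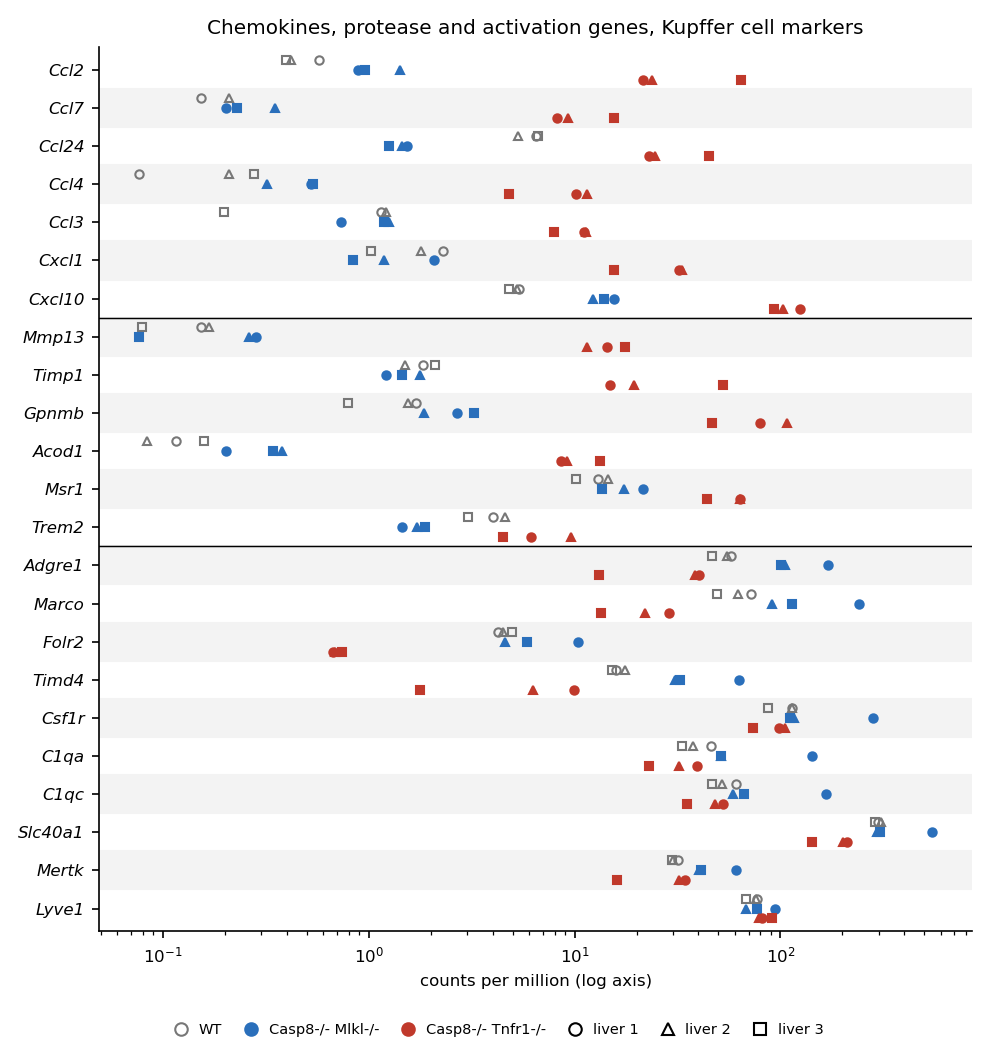
CPM on a log axis (x) of 7 chemokine genes, 6 protease and activation genes and 10 Kupffer cell markers (rows, split by lines) in WT (open grey), Casp8-/- Mlkl-/- (blue) and Casp8-/- Tnfr1-/- (red) livers, with circles, triangles and squares for livers 1, 2 and 3; Ccl7 was at 0 in WT liver 3 and is not drawn there. Red points lie right of blue ones in the upper blocks and left of them in the lower block, except for Lyve1; of all 21 tested Kupffer markers, 10 had lower values with groups apart, 1 higher and 10 overlapped.

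Of 14 tested monocyte genes 2 rose and none fell, against 1.54% and 0.116% of all genes. Without both outlying livers 13 were called higher, against 12% of all genes. The list summed to 6078, 2026 and 2419 CPM against 3176, 3152 and 5172 CPM, so Casp8-/- Mlkl-/- liver 1 was the highest of the 6. Plac8 measured 46.9, 36.1 and 45.6 CPM against 124, 137 and 140 CPM (log2 fold change 1.64 ± 0.17, SE, adjusted p = 0.00149). Vcan, a matrix proteoglycan of monocytes and stroma, measured 12.5, 11.7 and 19.6 CPM against 59.6, 51.0 and 121 CPM (2.40 ± 0.38, adjusted p = 0.0156), and lost its call without Casp8-/- Mlkl-/- liver 2. Ccr2, the CCL2 receptor of monocytes, overlapped, at 15.1, 20.9 and 16.9 CPM against 29.9, 32.6 and 3.42 CPM.

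None of 17 neutrophil and granule genes was called by edgeR, although 11 had an unadjusted p under 0.05 and a higher level in Casp8-/- Tnfr1-/- livers. DESeq2 called 7 higher, against 4.55% of all genes, and limma-voom 2, against 1.68%. With quality weights limma-voom called 16, against 11% of all genes. The list summed to 3683, 1397 and 1542 CPM against 5647, 6966 and 16113 CPM. S100a8, a calcium-binding protein of neutrophils, measured 448, 156 and 136 CPM against 828, 1056 and 3297 CPM (log2 fold change 2.81 ± 0.60, SE, adjusted p = 0.0515; 0.0164 without Casp8-/- Mlkl-/- liver 1 and 0.0486 without Casp8-/- Tnfr1-/- liver 3). Ltf, the gene of lactoferrin, measured 503, 85.8 and 83.3 CPM against 645, 863 and 1684 CPM (adjusted p = 0.155; 0.00300 without Casp8-/- Mlkl-/- liver 1). Mpo, the gene of myeloperoxidase, measured 377, 512 and 600 CPM against 672, 819 and 53.4 CPM, with liver 3 the lowest of all 6. Without Casp8-/- Mlkl-/- liver 1, 12 of the 17 were called higher, and without both outlying livers 16.

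On the endothelium, the leukocyte adhesion genes Sele and Selp were the 2 of 19 tested genes that rose, against 1.54% of all genes. Of the 19, 7 were called higher and 1 lower without both outlying livers, against 12% and 6.10% of all genes. Sele, the gene of E-selectin, measured 0.162, 0.262 and 0.344 CPM against 2.99, 2.75 and 26.4 CPM. Selp, the gene of P-selectin, which platelets also carry, measured 2.31, 2.41 and 3.48 CPM against 9.49, 10.5 and 26.8 CPM. Liver 3 was the highest for both, and their log2 fold changes of 5.35 ± 0.96 and 2.51 ± 0.46 (SE, adjusted p = 0.0259 and 0.0282) were 3.46 and 1.88 without it. Both calls were lost without any Casp8-/- Mlkl-/- liver or either Tnfr1-/- liver, and without some of the WT livers. Structural endothelial genes such as Cdh5, Kdr and Tie1 overlapped between groups.

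Acute phase genes, which hepatocytes make in inflammation, rose in 3 of 18 tested, against 1.54% of all genes. Lcn2, an iron-sequestering lipocalin also made by neutrophils, measured 267, 48.0 and 46.9 CPM against 1100, 1217 and 3250 CPM (log2 fold change 3.94 ± 0.74, SE, adjusted p = 0.0328). Steap4 measured 54.5, 14.2 and 16.3 CPM against 170, 158 and 109 CPM (2.36 ± 0.47, adjusted p = 0.0399), and Serpina3g measured 12.9, 7.61 and 9.78 CPM against 48.8, 45.1 and 152 CPM (3.02 ± 0.47, adjusted p = 0.0138). All 3 calls were lost without Casp8-/- Mlkl-/- liver 2 or 3, and of the 11 fits that left out 1 liver Lcn2 lost its call in 7 and Steap4 in 9. Saa3, a serum amyloid, measured 31.2, 1.16 and 0.917 CPM against 62.6, 72.3 and 184 CPM (adjusted p = 0.221; 0.00113 without Casp8-/- Mlkl-/- liver 1), and Hp, the gene of haptoglobin, 1119, 57.4 and 66.8 CPM against 968, 1094 and 2048 CPM (adjusted p = 0.427; 0.00241). In both, Casp8-/- Mlkl-/- liver 1 lay far above its own group. With liver 1 left out 11 of the 18 were called higher, and with both outlying livers left out all 17 then tested were.

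The lists of hepatocyte, erythroid, megakaryocyte, stem and progenitor, B lineage, stromal, muscle, replication, p53 target, hypoxia, lipid synthesis and oxidative phosphorylation genes held no called gene in the edgeR test with all livers in. Without both outlying livers edgeR called 12 of 23 erythroid and 8 of 21 replication genes lower, against 6.10% of all genes. It called 6 stromal, 6 muscle, 6 hypoxia, 5 hepatocyte and 5 p53 target genes higher, against 12% of all genes, with smaller counts in other lists. DESeq2 called 3 of 18 muscle, 3 of 17 p53 target, 2 of 16 stromal and 1 of 14 hypoxia genes higher, against 4.55% of all genes. It called 1 of 17 oxidative phosphorylation genes lower, against 0.905%, and none in the others. limma-voom called none without quality weights. With them, where 11% of all genes were called higher and 4.73% lower, it called 10 erythroid genes lower. It then also called 5 muscle, 5 p53 target, 4 stromal, 3 hepatocyte and 3 hypoxia genes higher, with smaller counts in other lists or the other direction. An unadjusted p under 0.05 in the edgeR test was reached by 2644 of all 17243 genes. Among these, 16 of 18 muscle, 9 of 16 stromal, 6 of 17 p53 target and 6 of 14 hypoxia genes were higher. Lower were 7 of 13 B lineage and 5 of 15 lipid synthesis genes. Of 22 hepatocyte genes 1 was higher and 2 lower, and of 23 erythroid genes 2 were lower. Of 12 megakaryocyte and 14 stem genes 1 each was higher, and of 17 oxidative phosphorylation genes 1 was lower. The medians of the muscle and hypoxia lists, 5.68 and 1.51, were 1.09 and -0.14 without Casp8-/- Tnfr1-/- liver 3, and that of the B lineage list, -1.65, was -0.05 without Casp8-/- Mlkl-/- liver 1. In the heme and iron list 1 of 13 genes rose, against 1.54% of all genes. It was Alas1, the housekeeping enzyme of heme synthesis, at 58.4, 49.5 and 46.1 CPM against 74.9, 88.4 and 82.1 CPM (log2 fold change 0.67 ± 0.14, SE, adjusted p = 0.0430). Its call was lost in 8 of the 11 fits that left out 1 liver.

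**Figure D5:**
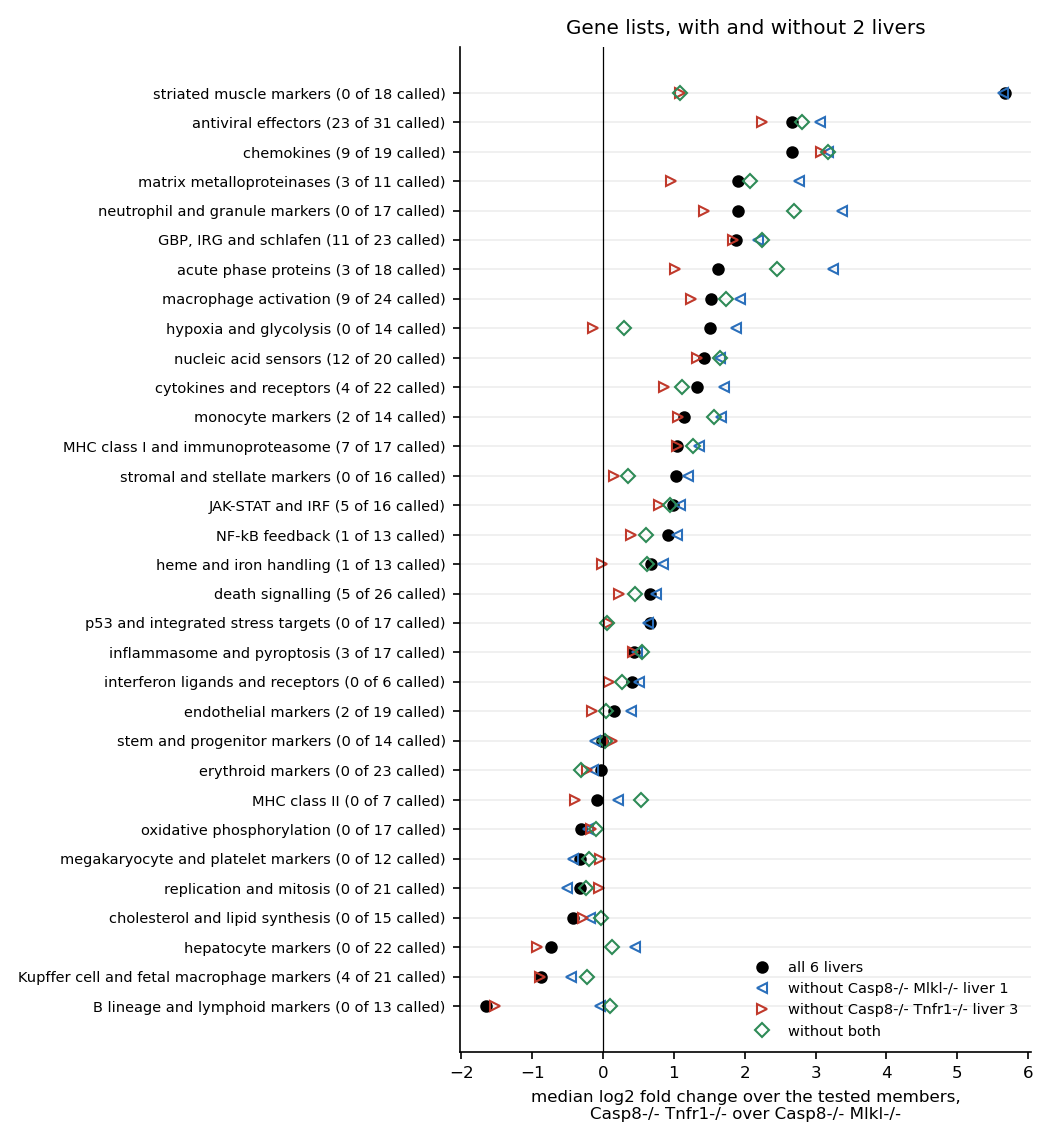
Median log2 fold change (x axis, Casp8-/- Tnfr1-/- over Casp8-/- Mlkl-/-) of the tested genes of each list (rows, without the sex chromosome list). Row labels give the number called with all 11 livers in the fit. Medians are shown with all livers (black), without Casp8-/- Mlkl-/- liver 1 (blue), without Casp8-/- Tnfr1-/- liver 3 (red) and without both (green). The antiviral effector medians lie between 2.25 and 3.06 in all 4, the muscle median drops from 5.68 to 1.09 without liver 3, and the Kupffer median moves from -0.88 to -0.23 without both.

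Of the 285 called genes, 185 were in none of the lists. Among the largest rises outside them, Rgs4, a regulator of G protein signalling, measured 0.324, 0.203 and 0.268 CPM against 10.5, 10.4 and 99.8 CPM (log2 fold change 7.24 ± 1.16, SE, adjusted p = 0.0158; 5.30 without Casp8-/- Tnfr1-/- liver 3). Lilr4b, a receptor of myeloid cells, measured 2.03, 0.988 and 0.994 CPM against 16.0, 15.4 and 144 CPM. Its log2 fold change of 5.46 ± 0.94 (SE, adjusted p = 0.0209) was 3.57 without Casp8-/- Tnfr1-/- liver 3. Lipg, endothelial lipase, measured 0.973, 0.901 and 0.955 CPM against 8.24, 8.54 and 205 CPM (6.29 ± 1.27, adjusted p = 0.0430; 3.15 without liver 3). These 3 were present in each Casp8-/- Tnfr1-/- liver and highest in liver 3, without which the fitted changes were smaller. Each lost its call without Casp8-/- Mlkl-/- liver 2 or 3. Lipg also lost it without liver 1 of that group or any background liver. Msx2, a homeobox factor, had 0, 0 and 1 counts against 100, 106 and 7, and Col22a1, a collagen of tissue junctions, 1, 0 and 1 counts against 32, 8 and 33 (adjusted p = 0.0243 and 0.0386). With Cxcl2, Dpep2 and Sirpb1b they are the 5 called genes with at most 3 counts in every Casp8-/- Mlkl-/- liver, for which a fitted fold means little.

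Of the 12 genes with the largest falls, Folr2, Marco and Timd4 are given above. Tspan10, a tetraspanin, had 50, 27 and 27 counts in Casp8-/- Mlkl-/- livers and 0, 1 and 0 in Casp8-/- Tnfr1-/- livers (adjusted p = 0.0156). WT livers had 1, 0 and 0 counts, so it was detected mainly in Casp8-/- Mlkl-/- livers. C6, of the membrane attack complex, measured 18.3, 2.18 and 2.98 CPM against 0.519, 0.275 and 0.0570 CPM (log2 fold change -4.66 ± 0.97, SE, adjusted p = 0.0461; -3.06 without Casp8-/- Mlkl-/- liver 1), and lost its call in 10 of the 11 fits that left out 1 liver, all but that one. Adgre4, an adhesion receptor of macrophages related to F4/80, measured 19.7, 14.0 and 11.4 CPM against 2.32, 2.24 and 0.627 CPM, and 4.10 to 6.29 CPM in WT (-3.09 ± 0.44, adjusted p = 0.00868).

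Kcna2, a potassium channel, measured 10.9, 3.05 and 3.82 CPM against 0.519, 0.0688 and 0.684 CPM, below WT at 5.58 to 6.84 CPM (log2 fold change -3.84 ± 0.69, SE, adjusted p = 0.0253). Ces1d, a carboxylesterase of hepatocytes, measured 107, 18.1 and 18 CPM against 6.13, 3.48 and 5.07 CPM, and its log2 fold change of -3.28 ± 0.67 (SE, adjusted p = 0.0433) was -1.88 without Casp8-/- Mlkl-/- liver 1. The other falls among the 12 largest were Colq, Pigz, Ccdc148 and Icos, with log2 fold changes of -3.52, -3.24, -3.09 and -3.05. Their means were 3.10, 1.27, 3.89 and 4.38 CPM in Casp8-/- Mlkl-/- livers and 0.659, 0.341, 1.82 and 2.39 CPM in WT. Every Casp8-/- Mlkl-/- liver lay above every WT liver in these genes. Neither Casp8-null group passed against WT in any of them (adjusted p of 0.0539 or more). In all 12, Casp8-/- Mlkl-/- liver 1 was the highest of its group. Kcna2 and Ces1d kept their calls in 5 and 3, and Pigz and Icos in 2 and 2, of the 11 fits that left out 1 liver; Colq lost its call without Casp8-/- Tnfr1-/- liver 2, and Tspan10 and Ccdc148 without Casp8-/- Mlkl-/- liver 3. Car3, a carbonic anhydrase named after its values were seen, had the smallest p among the genes called lower, at 121, 127 and 154 CPM against 26.8, 19.4 and 23.5 CPM (log2 fold change -2.53, adjusted p = 1.68e-04).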

How the data were processed

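Whole livers of E15.5 embryos were profiled by single-end RNA-seq. The authors aligned reads with GSNAP to GRCm38 (mm10) and deposited, per sample, whole-number read counts on each gene's exons with exon width and RPKM; only the counts were used. The counting tool, annotation and strand setting are not given in the sources used here, so overlapping genes on opposite strands cannot be told apart. Groups came from the genotype labels. Nothing ties livers to litters, so p-values measure the spread between these livers.

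Genes were filtered with filterByExpr (minimum count 10) and tested with edgeR 4.0.16 (R 4.3.3) quasi-likelihood tests after TMM scaling, with all 4 genotypes in 1 fit and Benjamini-Hochberg adjustment at 0.05. limma 3.58.1 (voom) and DESeq2 1.42.0 were alternatives, and the scripts were tested on simulated data. CPM used TMM library sizes. The comparison, and so its members, and the 33 gene lists were chosen with earlier results of these data known; the livers in each group follow from the labels. Named genes were the deleted genes, the 12 largest called changes each way with groups apart and a mean of at least 1 CPM, up to 6 per list by p and level, and death signalling genes; the 10 genes highest in Casp8-/- Mlkl-/- liver 1 were left to the hepatocyte sum. Other genes named (Car3, Alb, Afp, Xist, members that did not pass and scarce called genes) were chosen after their values were seen. Some single genes are not reported here. Gene positions are from GENCODE M21 and promoter windows from RefSeq.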

Additional observations from a re-analysis of the deposited data

How the results depend on the processing

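Genes called higher and lower numbered 265 and 20. They numbered 785 and 156 by DESeq2's Wald test, 1894 and 815 by limma-voom with quality weights, and 10 and 1 with only the 2 genotypes in the fit, where the antiviral effector list had 0 calls (28 at an unadjusted p under 0.05). Without a filter on low counts 31 were lower, and with both outlying livers left out 2032 and 1035. Leaving out 1 liver gave 71 to 518 higher, 10 to 57 lower and 12 to 26 antiviral effectors. Same-numbered livers did not deviate together (r of -0.297, 0.275 and -0.214), so the numbers do not pair them; a replicate block gave 130 higher. Ripk1, at -0.12, was 0.06 with quality weights, -0.22 to 0.07 with 1 liver left out (0.07 without Casp8-/- Tnfr1-/- liver 3) and 0.08 without both livers. The cause of these shifts was not tested. Of 2405 gene values under alternatives for 105 genes, 1979 kept direction and side of the threshold, 331 lost the call, 92 gained it and 3 changed sign. Depth limits the interferon genes, at 1 to 4 counts per liver in all.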
